A study of Mus musculus with 12 samples.

Results

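The comparison set striatum labelled cGAS-KO, from mice deficient in cGAS per the labels, against striatum labelled STING-KO, from mice deficient in STING, both 14 days after ischemic stroke. It holds 4 of the 12 libraries of the study, replicates 1 and 2 of each label at 14 days, chosen by their titles, and all genes were examined. The other 8 libraries come from the same 2 labels at 7 days and from wild-type (WT) mice at both times; the 7-day knockout libraries serve here as a second comparison and the WT libraries only add to the estimate of spread. All groups share the C57BL/6J strain, the striatum, the stroke and polyA+ sequencing of total RNA, and CRISPR-Cas9 was used to make both deficient lines, per the labels. Both groups compared therefore carry a deficiency, so a gene given as higher in one is equally lower in the other, and neither stands for the normal state. The labels give no age, sex, stroke model or side of the brain and do not say whether a library is 1 mouse or several, so a p-value here reflects only how far these libraries spread, which may be technical. Eif2s3y, a Y-linked translation factor, was read at 85.7 and 92.6 CPM in the cGAS-KO libraries and at 98.1 and 79.7 CPM in the STING-KO libraries, so each held RNA of male tissue. CPM is the count relative to the library total after TMM scaling.

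cGAS is a cytosolic enzyme that binds double-stranded DNA and makes the cyclic dinucleotide cGAMP, and STING is the membrane protein of the endoplasmic reticulum that cGAMP activates. Activated STING recruits the kinase TBK1, which phosphorylates the transcription factor IRF3, and it also feeds NF-kappaB; the type I interferons made in response act through their receptor, JAK kinases and factors that include STAT2 and IRF9 to switch on interferon-stimulated genes. In brain tissue, microglia, the resident macrophages, are the main cells that carry this pathway, and after a stroke they clear debris beside reactive astrocytes. The striatum is built mostly of inhibitory projection neurons of the direct pathway, marked by the dopamine receptor Drd1 and substance P (Tac1), and of the indirect pathway, marked by Drd2 and enkephalin (Penk).

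The 14-day libraries labelled cGAS-KO carried far more transcript of immune and glial genes and far less of neuronal genes than those labelled STING-KO. Of 19822 genes tested, from 54532 in the files and 29176 with a count in these libraries, 7112 passed the threshold, an adjusted p below 0.05 in edgeR's quasi-likelihood test (35.9%). Higher in cGAS-KO were 3612 genes (18.2%) and lower 3500 (17.7%), and 2353 of the higher and 1469 of the lower genes differed more than 2-fold. The groups did not overlap for 6608 genes on the higher side (33.3%) and for 6283 on the lower side (31.7%). The median log2 difference over all genes tested was 0.04. All differences below are cGAS-KO minus STING-KO on the log2 scale, ± the standard error of the fit. Library totals were 22126213 and 21253580 counts for cGAS-KO and 17011088 and 15956242 for STING-KO, so that 3 counts, the limit that a count of 0 allows, equal 0.133 to 0.195 CPM, which covers counting error only. The 2 cGAS-KO libraries differed from each other by a median of 0.227 per gene and the 2 STING-KO libraries by 0.312, both on the log2 scale. Left out alone, STING-KO replicate 1 reduced the calls to 4728 and cGAS-KO replicate 2 to 4632, and a fit on the 4 libraries alone gave 4614.

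**Figure D1:**
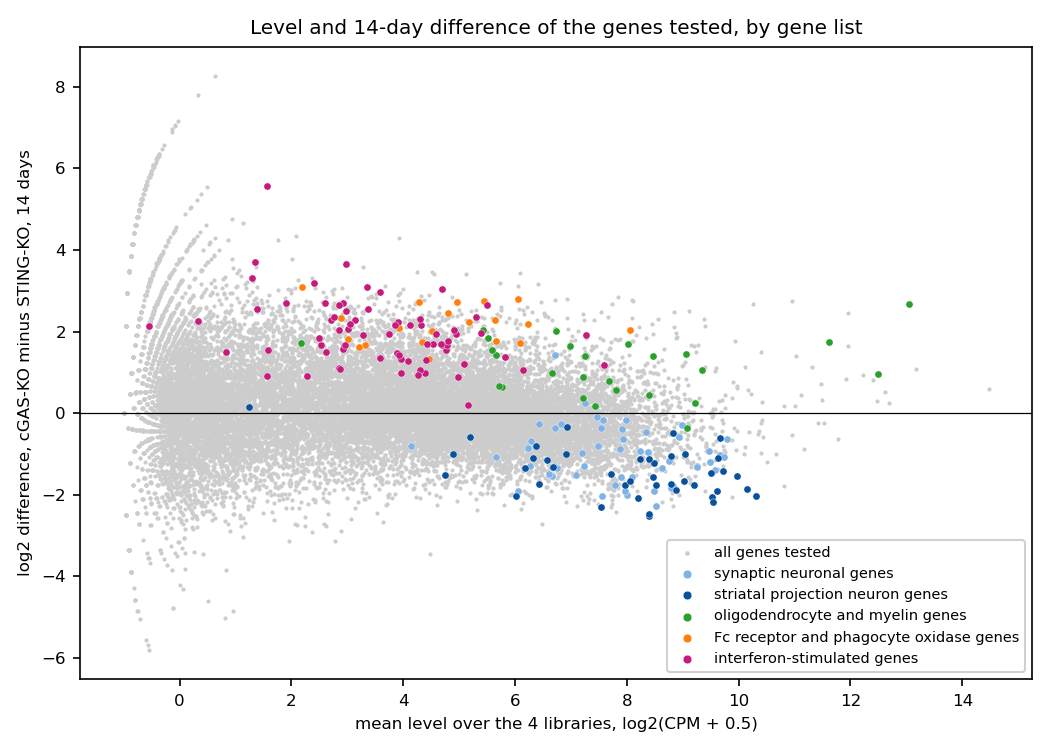
Log2 difference between the libraries labelled cGAS-KO and STING-KO at 14 days (vertical axis) against the mean level over the 4 libraries, log2(CPM + 0.5) (horizontal axis), for 19822 genes, with 5 gene lists coloured. Interferon-stimulated, Fc receptor and myelin genes lie above 0 and striatal and synaptic neuronal genes below it, with few exceptions.

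The transcript of the gene named by each label was read first. Tmem173, the gene of STING, stood at 18.4 and 18.1 CPM in the libraries labelled cGAS-KO and at 2.40 and 5.21 CPM in those labelled STING-KO, a difference of 2.27 ± 0.27 (edgeR adjusted p = 0.0002). The direction is that of the label, and its size lies among those of the microglial genes below. Cgas (ENSMUSG00000032344; mm10, chromosome 9, 78430526 to 78443237, minus strand) stood at 4.09 and 6.15 CPM in the libraries labelled cGAS-KO and at 4.50 and 3.58 CPM in those labelled STING-KO, and the difference of 0.34 ± 0.31 did not pass (adjusted p = 0.431). The groups overlap, so the cGAS label has no counterpart in the level of its transcript here. At 7 days the difference was -1.09 ± 0.28, also not called (adjusted p = 0.181), and the change between the days passed (adjusted p = 0.0364). A short CRISPR-Cas9 insertion or deletion can leave a transcript's count unchanged and is not visible per gene. Below, cGAS-KO and STING-KO are therefore labels, and each direction is one between libraries labelled so.

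Around these 2 genes, the relays and effectors of the pathway were mostly higher in the libraries labelled cGAS-KO. Of 33 genes on a list of the cGAS, STING and interferon pathway, 31 were tested, 19 were higher, 3 lower and 9 not called, with a median of 0.83. The interferon Ifnb1 had 0 and 3 counts in cGAS-KO and 0 and 0 in STING-KO, at most the limit that a count of 0 allows, and the DNA exonuclease gene Trex1 had no count in any of the 4. Among the kinases, Ikbke, the inducible relative of TBK1, stood at 15.9 and 19.1 against 4.14 and 4.69 CPM (1.99 ± 0.24, adjusted p = 0.00024). Tbk1 itself went the other way, with 41.8 and 43.0 against 65.2 and 59.2 CPM (-0.55 ± 0.13, adjusted p = 0.00578). The direct kinases of the pathway thus moved in opposite directions.

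The transcription factors that receive these signals were higher. Irf3 stood at 52.1 and 47.7 against 22.8 and 26.4 CPM (1.02 ± 0.15, adjusted p = 0.000618), and the NF-kappaB subunits Nfkb1 and Rela rose by 0.77 ± 0.13 and 1.48 ± 0.28. Irf7, which interferon itself induces, stood at 12.5 and 46.9 against 2.46 and 10.4 CPM (2.22 ± 0.66, adjusted p = 0.0224). Replicate 2 was the higher library in both groups for Irf7, and the lowest cGAS-KO library lay only slightly above the highest STING-KO library. Of the interferon receptor chains, Ifnar2 (0.92 ± 0.15), Ifngr1 (0.79 ± 0.15) and Ifngr2 (0.95 ± 0.21) passed and Ifnar1 did not, at 69.5 and 70.8 against 60.05 and 67.3 CPM (0.14 ± 0.12, adjusted p = 0.402). Below the receptors, Tyk2, Stat2 and Irf9 were higher by 0.93 ± 0.16, 1.01 ± 0.24 and 0.99 ± 0.22. Jak1 (-0.54 ± 0.13) and Jak2 (-0.60 ± 0.16) were lower. In a fit on only the 4 libraries compared, Jak1, Jak2 and Tbk1 were not called (adjusted p = 0.0501, 0.0569 and 0.0571), which left no gene of the pathway list called lower.

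The brakes on interferon signalling were among the largest differences of the pathway. Socs1, which blocks JAK kinases, stood at 1.78 and 2.65 against 0.0600 and 0.391 CPM (3.29 ± 0.62, adjusted p = 0.00199), the lowest of these lying under the limit that a count of 0 allows. Usp18, which removes ISG15 from proteins and dampens the receptor, stood at 6.94 and 21.1 against 1.2 and 3.65 CPM (2.54 ± 0.58, adjusted p = 0.0064), and Socs3 rose by 2.28 ± 0.63. Higher too were Nfkbia, the inhibitor of NF-kappaB (0.76 ± 0.22), Samhd1, a nucleotide hydrolase (0.85 ± 0.21), and Trim56, a ubiquitin ligase of the pathway (0.83 ± 0.18). Genes that handle cGAMP or act on cGAS did not pass. Those of cGAMP were Enpp1, which hydrolyses it (0.53 ± 0.26), Smpdl3a (-0.14 ± 0.16) and the transporters Slc19a1 (0.16 ± 0.29), Abcc1 (0.08 ± 0.15) and Lrrc8a (0.78 ± 0.34). The others were the chromatin protein Banf1 (0.16 ± 0.17) and G3bp1 (0.07 ± 0.12). The pathway calls were fewer without cGAS-KO replicate 2, with 11 higher and 2 lower, and without STING-KO replicate 1, with 12 higher and 2 lower. Irf7, Stat2, Socs3, Usp18, Samhd1 and Jak2 lost their calls whichever of these libraries was left out, and Irf9 only without cGAS-KO replicate 2, with adjusted p up to 0.292 (Irf7 without cGAS-KO replicate 2). Socs3 also lost its call without cGAS-KO replicate 1 (adjusted p = 0.0501), and Nfkbia lost its call whichever of the 4 libraries was left out (adjusted p up to 0.0954).

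**Figure D2:**
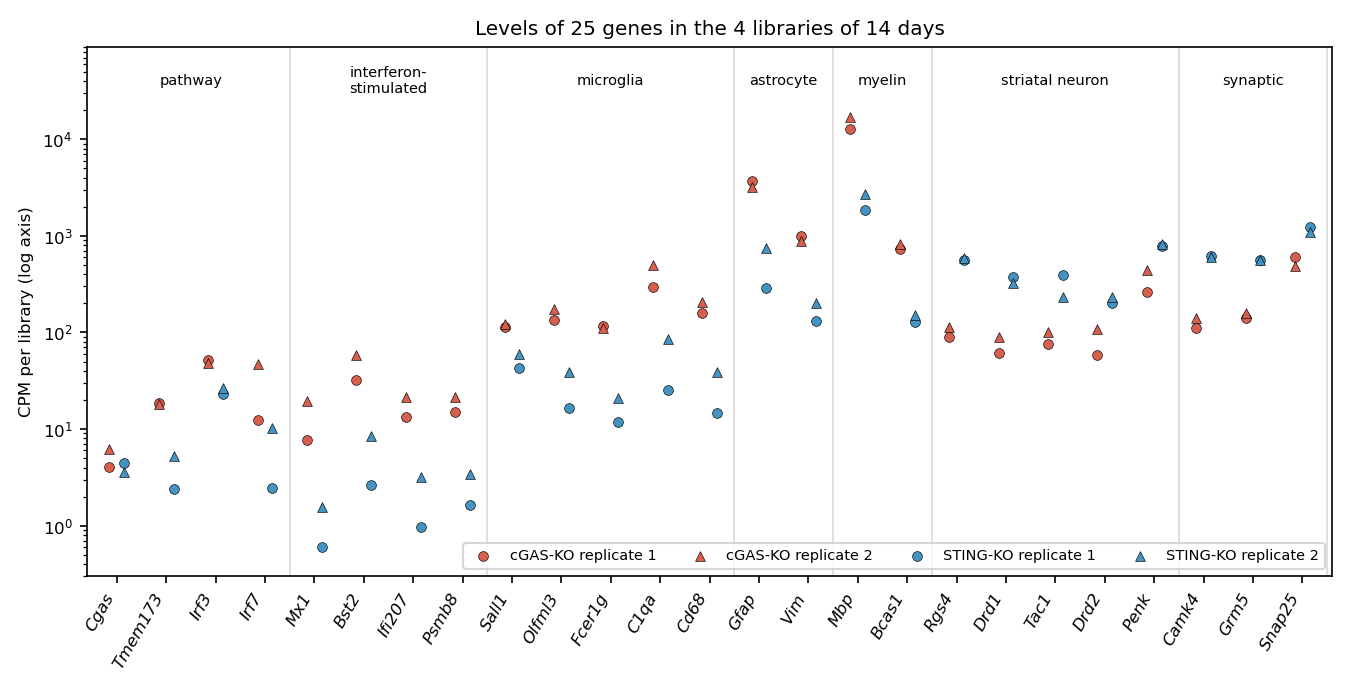
CPM of 25 genes in each of the 4 libraries on a log axis, with cGAS-KO in red, STING-KO in blue, circles for replicate 1 and triangles for replicate 2. The groups overlap for Cgas; cGAS-KO lies above STING-KO for the other pathway, interferon-stimulated, microglial, astrocyte and myelin genes and below it for the striatal and synaptic genes shown.

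Interferon-stimulated genes were mostly higher in the libraries labelled cGAS-KO. Of 72 tested, 63 were higher, none was lower, 9 were not called, and the median was 1.92. Mx1, a GTPase gene that interferon induces, stood at 7.70 and 19.6 against 0.6 and 1.56 CPM (3.67 ± 0.61, edgeR adjusted p = 0.00122). Bst2, tetherin, which holds budding virus at the membrane, stood at 32.0 and 58.9 against 2.64 and 8.53 CPM (3.04 ± 0.42, adjusted p = 0.000514). Ifi207, of the family of DNA-binding Ifi200 proteins, stood at 13.4 and 21.5 against 0.960 and 3.19 CPM (3.09 ± 0.44, adjusted p = 0.00052). For these 3 genes both cGAS-KO libraries exceeded both STING-KO libraries, and replicate 2 was again the higher one in each group. Ifi27 (1.06 ± 0.31), Lgals3bp (1.92 ± 0.56) and Ly6e (1.19 ± 0.26), among the most abundant of the list, also passed. Leaving out cGAS-KO replicate 2 or STING-KO replicate 1 lowered the count to 38 or 37, with medians of 1.29 and 1.47. Ifi27 and Lgals3bp lost their calls without cGAS-KO replicate 2, with adjusted p = 0.108 and 0.0971, and Ifi27 lay at the threshold without cGAS-KO replicate 1 (adjusted p = 0.05).

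The promoters of these genes are shown because interferon acts on them through a short element, the interferon-stimulated response element (ISRE), here searched as GAAA, any 2 bases and GAAA again on both strands. In the RefSeq promoter windows (GRCm38.p6, 250 bases before to 50 after the start), 56 of the list's tested genes had a window and 30 of these held a match (53.6%), against 3.12% of 13423 windows of genes tested and 3.49% of all 27025 windows. The stretches below run 5′ to 3′ on the gene's strand and end before the start of transcription, with 1 match of each in capitals. Bst2, Ifit1, Irgm1 and Isg15 hold further, neighbouring matches that are left in lower case. Ifit3 holds 2 matches before its start, of which only the one in capitals lies in the printed stretch. A match on the other strand has TTTC at both ends. The genes were picked after their values were seen.
Bst2 (chr8:71537567-71537616, minus strand): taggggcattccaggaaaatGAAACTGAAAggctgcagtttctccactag
Ifi207 (chr1:173741821-173741870, minus strand): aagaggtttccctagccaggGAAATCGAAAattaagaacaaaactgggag
Ifit1 (chr19:34640784-34640833, plus strand): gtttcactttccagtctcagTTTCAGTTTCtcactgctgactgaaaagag
Ifit3 (chr19:34583387-34583436, plus strand): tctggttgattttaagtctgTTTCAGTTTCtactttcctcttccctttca
Isg15 (chr4:156200855-156200904, minus strand): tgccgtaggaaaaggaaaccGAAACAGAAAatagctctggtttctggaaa
Irgm1 (chr11:48871421-48871464, minus strand): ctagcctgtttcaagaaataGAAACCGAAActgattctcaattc
Each of these 6 genes was called higher. Ifit3, an inhibitor of viral replication, stood at 33.7 and 119.8 against 11.5 and 13 CPM (2.65 ± 0.56), and Isg15, the ubiquitin-like modifier, at 5.25 and 15.9 against 3.6 and 3.45 CPM (1.58 ± 0.46). The calls of Ifit1 and Ifit3 were lost without STING-KO replicate 1 (adjusted p = 0.0724 and 0.0593) and that of Isg15 without cGAS-KO replicate 2 or either STING-KO library (adjusted p up to 0.236). The 30 genes of the list with a match had a median of 2.00 and the 26 without one 1.55. Genes outside the list with a match had a median of 0.23 over 389, and those without one 0.05 over 12978. A match describes these letters only and shows no binding.

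Antigen presentation genes followed the same direction. Of 18 MHC class I genes tested, 16 were higher and none lower (median 1.59), and of 11 MHC class II genes 9 were higher and none lower (median 2.15). B2m, the common light chain of class I molecules, stood at 637 and 831 against 111.8 and 297 CPM (1.84 ± 0.35, adjusted p = 0.00247). Psmb8, a catalytic subunit of the immunoproteasome, stood at 15 and 21.2 against 1.62 and 3.45 CPM (2.85 ± 0.33, adjusted p = 0.000184). H2-Ob, a chain that regulates class II loading, rose by 2.41 ± 0.33, and Cd74, the invariant chain, stood at 25.8 and 67.5 against 4.62 and 12.4 CPM (2.46 ± 0.66). Cd74 varied more than 2-fold within each group, and without cGAS-KO replicate 2 or STING-KO replicate 1 the class II calls fell to 3 or 2; Cd74 then had an adjusted p of up to 0.144. The class I calls fell to 10 without cGAS-KO replicate 2.

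Microglial genes of both resting and activated states were higher in the libraries labelled cGAS-KO. All 20 tested genes of a homeostatic microglia list were called higher (median 1.35), as were 28 of 32 genes of the disease-associated state (median 2.29), with none lower. Olfml3, a secreted microglial protein, stood at 133.9 and 174 against 16.6 and 39.4 CPM (2.46 ± 0.32, adjusted p = 0.000354). Sall1, the transcription factor that keeps microglial identity, stood at 115 and 121 against 43.3 and 59.97 CPM (1.2 ± 0.17, adjusted p = 0.000514). Apoe, a lipid carrier of astrocytes and activated microglia, stood at 6366 and 7077 against 780.0 and 1676 CPM (2.45 ± 0.33), and Cd68, a lysosomal glycoprotein of phagocytes, at 159.8 and 206 against 14.8 and 39.2 CPM (2.76 ± 0.35). None of these 4 genes overlapped between the groups. In bulk tissue, fewer cells of a type and less RNA per cell cannot be told apart.

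Most genes of the phagocyte machinery were higher. All 20 Fc receptor and phagocyte oxidase genes were called higher, with differences from 1.32 to 3.08 and a median of 2.14. Fcer1g, the signalling chain of Fc receptors, stood at 117 and 112 against 11.7 and 21.0 CPM (2.81 ± 0.24, adjusted p = 8.19e-05). Fcgr3, an activating IgG receptor, stood at 108 and 135 against 21.1 and 32.8 CPM (2.18 ± 0.22). Of 17 complement genes, 13 were higher and none lower (median 2.05). C1qa, a chain of the complement initiator C1q, stood at 296 and 504 against 25.3 and 85.1 CPM (2.86 ± 0.46, adjusted p = 0.00101), and C4b, which the astrocytes and microglia of injured brain make, at 1026 and 1184 against 120.8 and 325 CPM (2.31 ± 0.40). Of 34 lysosomal genes, 21 were higher and 3 lower. The lower ones included the proton pump subunits Atp6v1h (-1.11 ± 0.12) and Atp6v1b2 (-0.73 ± 0.17), while the proteases Ctsa (1.77 ± 0.26) and Lgmn (1.81 ± 0.20) were higher. Without cGAS-KO replicate 2 the call of Atp6v1b2 was lost (adjusted p = 0.0608).

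Sensors and signals showed the same lean. Of 30 innate receptor and inflammasome genes 22 were higher and none lower (median 1.65). Naip5, a sensor of bacterial flagellin, stood at 43.6 and 40.7 against 6.54 and 10.8 CPM (2.29 ± 0.24), Casp1, the inflammasome protease, rose by 2.30 ± 0.27 and Myd88, the adaptor of Toll-like receptors, by 2.05 ± 0.23. Of 28 cytokine and receptor genes 21 were higher and none lower (median 1.42), among them Tgfb1, an anti-inflammatory cytokine, at 38.8 and 51.1 against 5.46 and 12.3 CPM (2.35 ± 0.28, adjusted p = 0.000211). The chemokine list was mixed, with 9 of 18 higher and 1 lower. Ccl4, an inflammatory chemokine, stood at 6.94 and 10.5 against 0.540 and 1.56 CPM (3.06 ± 0.51), and Cxcl16 rose by 2.24 ± 0.32, whereas the neuronal chemokine Cx3cl1 was lower, at 248 and 371 against 525 and 587 CPM (-0.84 ± 0.21, adjusted p = 0.00978), a call lost without cGAS-KO replicate 1 (adjusted p = 0.0911). Without STING-KO replicate 1, 13 cytokine and 5 chemokine genes were higher.

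Within each library, the mean log2(CPM + 0.5) of the homeostatic microglia list was taken from that of the other immune lists. This sets them beside the level of that list, which is not a measure of the number of microglia. The disease-associated list stood at -1.39 and -1.27 relative to it in cGAS-KO and at -2.12 and -1.77 in STING-KO, and the Fc receptor list at -2.09 and -1.95 against -2.74 and -2.50. Both lists were higher in cGAS-KO relative to resting microglial genes, without overlap. The lysosome list lay the other way, also without overlap, at -0.84 and -0.79 in cGAS-KO against 0.23 and -0.22 in STING-KO. Its median difference was 0.79, against 1.35 for the homeostatic list. It holds pump subunits that were lower in cGAS-KO, such as Atp6v1h (-1.11 ± 0.12). Whether its position reflects microglia was not tested. The complement list was slightly higher in cGAS-KO, without overlap, at -1.67 and -1.56 against -1.83 and -1.74. The interferon-stimulated list stood at -3.79 and -2.84 in cGAS-KO and at -3.39 and -3.48 in STING-KO. The MHC class I list stood at -2.47 and -1.81 against -2.38 and -2.10, and the class II list at -3.89 and -3.29 against -3.67 and -3.55. The interferon-stimulated and both MHC lists overlapped between the groups: relative to the homeostatic list, interferon-stimulated genes were the lowest in cGAS-KO replicate 1 and the highest in cGAS-KO replicate 2.

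Lists of blood immune cells and macrophages had calls for a minority of their genes. Of 28 monocyte and macrophage genes, 5 were higher and 1 lower (median 0.39), beside 18.2% higher and 17.7% lower among all genes tested. Ccr2, the receptor that brings monocytes to tissue, stood at 1.07 and 2.22 against 0.180 and 1.11 CPM and was not called (edgeR adjusted p = 0.161). Of 14 neutrophil genes 7 were tested and only Csf3r, which microglia also carry, was called; S100a8 stood at 0.401 and 0.615 against 0.840 and 0.326 CPM. The T and NK cell list had 9 of 25 genes higher and none lower, with Ccl5, a chemokine of these cells, at 3.07 and 7.95 against 0.0600 and 0.521 CPM (4.25 ± 0.75, adjusted p = 0.00137). Cd3e, a defining chain of the T cell receptor, stood at 0.845 and 1.61 against 0.00 and 0.586 CPM and was not called (adjusted p = 0.0512). The summed share of counts of the T and NK list was 0.0209% and 0.0251% in cGAS-KO and 0.0218% and 0.0258% in STING-KO, a sum to which Thy1, which neurons also express, added 172 and 183 against 187 and 213 CPM. The share of the monocyte list was 0.0260% and 0.0256% against 0.0171% and 0.0156%. The T and NK calls numbered 4 higher and the monocyte calls 2 when cGAS-KO replicate 2 was left out, and 2 and 1 when STING-KO replicate 1 was. Of the B cell genes, Ighm stood at 60.9 and 82.4 against 12 and 23.8 CPM (2.00 ± 0.32) and Igkc at 4.63 and 29.4 against 1.02 and 1.82 CPM (3.58 ± 1.08). Igkc lost its call without cGAS-KO replicate 2 or either STING-KO library (adjusted p up to 0.284).

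Reactive astrocyte genes were higher and homeostatic ones mixed. Of 30 reactive genes, 17 were higher and none lower (median 1.48). Gfap, the intermediate filament of reactive astrocytes, stood at 3652 and 3233 against 288 and 741 CPM (2.74 ± 0.51, adjusted p = 0.00224), Vim, another filament, at 990.2 and 891 against 131.9 and 202 CPM (2.50 ± 0.39), and Serpina3n, a secreted protease inhibitor, at 484 and 473 against 24.4 and 118.8 CPM (2.74 ± 0.61). STING-KO replicate 1 was the lowest library for all 3 genes, and neither STING-KO library reached the cGAS-KO level. Without that library the reactive calls numbered 11. Of 22 homeostatic astrocyte genes, 6 were higher and 2 lower. Aqp4, the water channel of astrocyte endfeet, stood at 571 and 437 against 166 and 219 CPM (1.39 ± 0.23, adjusted p = 0.000976). The bicarbonate transporter Slc4a4 was lower (-1.31 ± 0.18), and the glutamate transporter Slc1a2, at 3015 and 2495 against 4553 and 3907 CPM, did not pass (-0.62 ± 0.25, adjusted p = 0.0721).

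Myelin genes were higher in the libraries labelled cGAS-KO. Of 26 oligodendrocyte and myelin genes, 19 were higher and none lower (median 1.23). Mbp, a main protein of compact myelin, stood at 12630 and 16810 against 1870 and 2705 CPM (2.69 ± 0.29, adjusted p = 0.000164). The list took 3.23% and 3.50% of all counts in cGAS-KO and 1.11% and 1.08% in STING-KO. Among 14 precursor genes 8 were higher and 1 lower. Bcas1, a gene of newly formed oligodendrocytes, was among the higher ones, at 729 and 830.0 against 128 and 153 CPM (2.47 ± 0.27). Ptprz1 was not called (-0.18 ± 0.21). Without STING-KO replicate 1 the myelin calls numbered 12 and the precursor calls 4 higher; without cGAS-KO replicate 1 the precursor calls numbered 5.

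Scar matrix genes were partly higher, and vessel genes mostly not called. Of 41 collagen and scar matrix genes, 21 were higher and none lower (median 1.18). Col5a1, a fibril-regulating collagen chain, stood at 38.2 and 29.5 against 1.98 and 4.17 CPM (3.47 ± 0.48, adjusted p = 0.000478), while Col6a1, the most abundant collagen of the list, stood at 256 and 222 against 275 and 210.2 CPM (-0.02 ± 0.32). Without 1 of the 4 libraries the matrix calls numbered 9 to 16. Of 27 endothelial genes 7 were higher and none lower (median 0.54). The groups did not overlap for 23 of them on the higher side, beside 33.3% of all genes tested. The junction gene Cldn5 was called higher (1.63 ± 0.53), but Pecam1 (0.17 ± 0.34) and Flt1 (0.18 ± 0.16), picked after their values were seen, were not. Of 16 pericyte and smooth muscle genes 2 were higher, beside 18.2% of all genes tested. The endothelial calls numbered 2 without either cGAS-KO library or STING-KO replicate 1, and the call of Cldn5 was lost without each of these 3 (adjusted p up to 0.172).

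**Figure D3:**
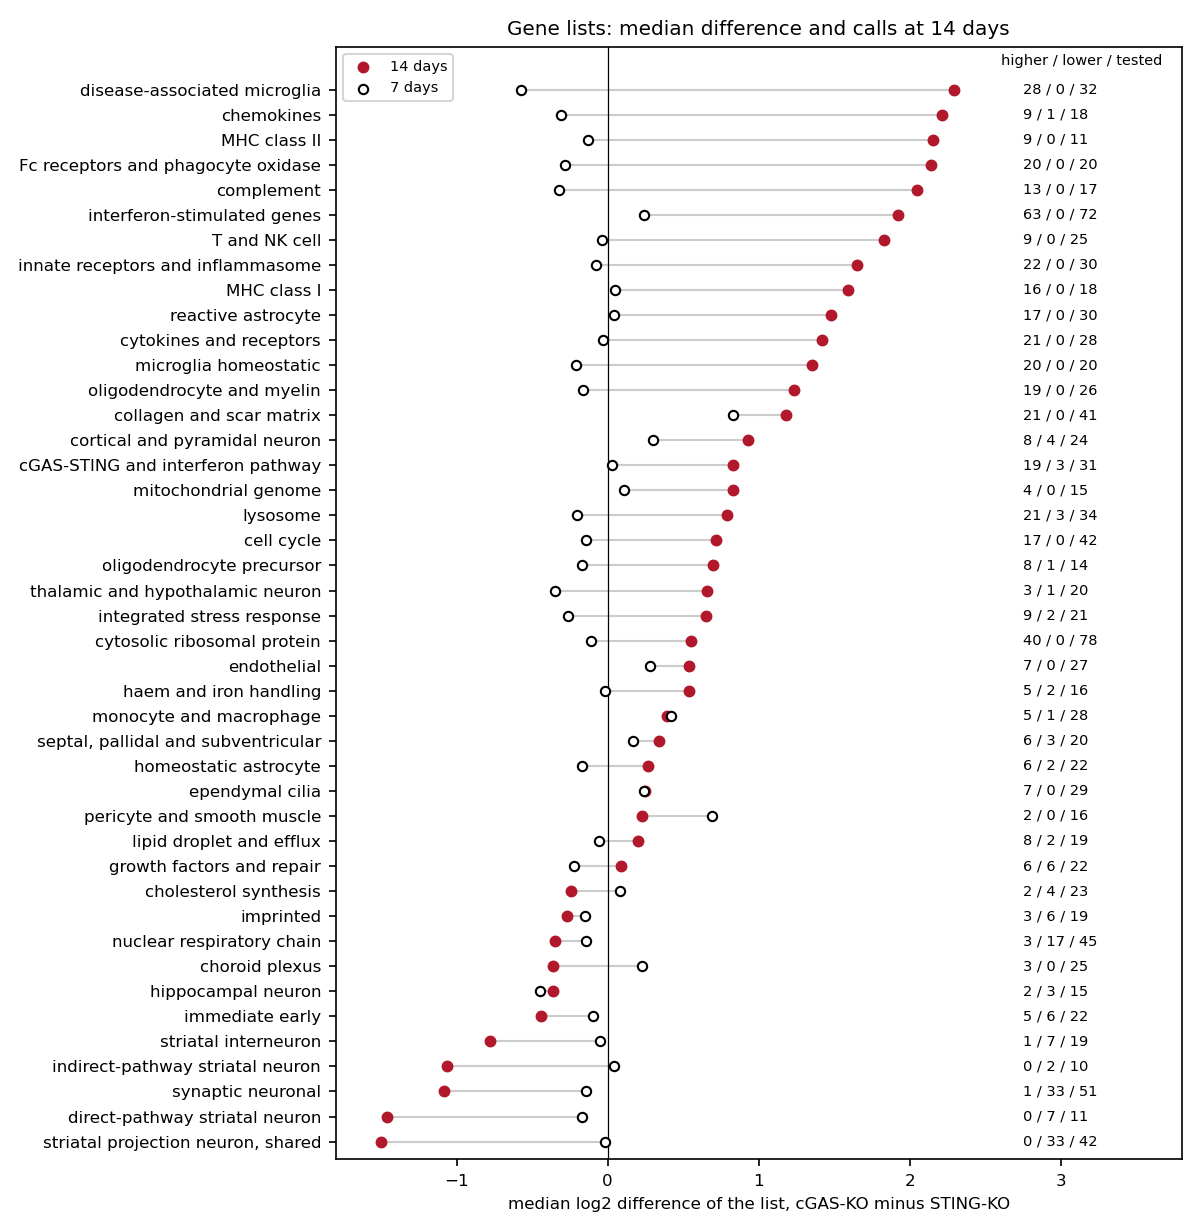
Median log2 difference, cGAS-KO minus STING-KO, of each list with at least 10 genes tested, at 14 days (filled) and 7 days (open), with the numbers called higher, called lower and tested at 14 days at the right. Immune, glial and matrix lists lie to the right of 0 at 14 days and striatal and synaptic lists to the left, while the 7-day medians drawn lie between -0.57 and 0.83.

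Genes of striatal projection neurons were lower in the libraries labelled cGAS-KO. Of 42 genes shared by these neurons, 33 were lower, none higher and 9 not called, with a median of -1.50. Rgs4, a brake on G-protein signals, stood at 90.6 and 115 against 556 and 585 CPM (-2.47 ± 0.16, adjusted p = 4.92e-05). Cacna2d3, a calcium channel subunit, stood at 55.3 and 69.8 against 345 and 267 CPM (-2.29 ± 0.20, adjusted p = 8.28e-05), and Arpp21, a cAMP-regulated phosphoprotein, at 448 and 559 against 2316 and 1764 CPM (-2.02 ± 0.27). Adcy5, the adenylyl cyclase of these neurons, and the transcription factor Foxp2 fell by 1.53 ± 0.29 and 1.74 ± 0.16. Pde10a, the striatal phosphodiesterase, stood at 405 and 582 against 1687 and 1861 CPM (-1.84 ± 0.52, adjusted p = 0.0175), a call that was lost whichever of the 4 libraries was left out (adjusted p up to 0.112). Ppp1r1b (DARPP-32), the dopamine signal integrator, stood at 249.9 and 506 against 391 and 668 CPM and was not called; its groups overlapped. The list took 0.738% and 0.987% of all counts in cGAS-KO and 2.35% and 2.49% in STING-KO.

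The direct-pathway genes passed more often than the indirect-pathway ones, a difference that was not itself tested. Of 11 direct-pathway genes 7 were lower (median -1.46), and of 10 indirect-pathway genes 2 were lower (median -1.06). In a fit on only the 4 libraries compared, 9 direct-pathway and 5 indirect-pathway genes were lower. Drd1 stood at 61.1 and 89.1 against 376 and 325 CPM (-2.22 ± 0.61, adjusted p = 0.0162), Tac1 at 75.2 and 102 against 396 and 235 CPM (-1.83 ± 0.48, adjusted p = 0.0127), and Pdyn, the dynorphin precursor, at 56.5 and 81.1 against 218 and 160.0 CPM (-1.46 ± 0.36, adjusted p = 0.00997). The calls of Drd1 and Tac1 were lost without either cGAS-KO library or STING-KO replicate 1, and that of Pdyn without replicate 1 of either group, with adjusted p up to 0.111. The direct-pathway calls were fewer without either cGAS-KO library or STING-KO replicate 1. Without STING-KO replicate 1 they no longer outnumbered the indirect-pathway ones, and the medians were -1.37 for the direct and -0.98 for the indirect list. In fits on the 14-day libraries alone, Drd2, Adora2a and Penk did pass; the cause was not tested. Drd2 stood at 58.7 and 107 against 200.2 and 231 CPM (-1.38 ± 0.62, adjusted p = 0.107), Adora2a, the adenosine receptor of the indirect pathway, at 75.7 and 106 against 183 and 319.7 CPM (-1.47 ± 0.76, adjusted p = 0.157), and Penk at 260.2 and 441 against 781 and 832 CPM (-1.20 ± 0.55, adjusted p = 0.113). Both cGAS-KO libraries lay below both STING-KO libraries for all 6 of these genes. The standard errors ran from 0.55 to 0.76 for Drd2, Adora2a and Penk and from 0.36 to 0.61 for Drd1, Tac1 and Pdyn, ranges that overlap. Within libraries, the direct list minus the indirect list in mean log2(CPM + 0.5) was -0.34 and -0.29 in cGAS-KO and 0.45 and 0.07 in STING-KO.

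General synaptic genes were lower as well. Of 51 tested, 33 were lower and 1 higher, with a median of -1.08. Camk4, a neuronal calmodulin kinase, stood at 112 and 139.5 against 618 and 607 CPM (-2.29 ± 0.22, adjusted p = 0.000112), and the glutamate receptor Grm5 fell by 1.92 ± 0.18. Snap25, of the vesicle fusion machinery in all neurons, stood at 599 and 489.5 against 1221 and 1084 CPM (-1.08 ± 0.25, adjusted p = 0.00574). Among 19 interneuron genes 7 were lower and 1 higher. The cholinergic genes Slc5a7, the choline transporter, and Chat, the synthesising enzyme, fell by 2.37 ± 0.32 and 1.74 ± 0.44, whereas somatostatin (Sst), at 134.1 and 100.5 against 55.3 and 101.1 CPM, was not called (0.59 ± 0.37). Without cGAS-KO replicate 1 the interneuron calls numbered 1 lower and Chat lost its call (adjusted p = 0.0844); without cGAS-KO replicate 2 Snap25 lost its call (adjusted p = 0.0602).

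Genes of neurons outside the striatum had calls on both sides, beside 18.2% higher and 17.7% lower among all genes tested. Of 24 cortical and pyramidal genes 8 were higher and 4 lower, and the list took 0.22% and 0.213% of all counts in cGAS-KO and 0.2% and 0.273% in STING-KO. Slc17a7, which loads glutamate into vesicles of cortical and hippocampal neurons, stood at 294 and 131.5 against 10.3 and 51.1 CPM (2.80 ± 0.66, adjusted p = 0.00738), Tbr1, a cortical transcription factor, at 38.0 and 14.3 against 3.06 and 5.67 CPM (2.59 ± 0.65), and Neurod2 at 25.3 and 13 against 0.9 and 4.23 CPM (2.92 ± 0.51). Both cGAS-KO libraries exceeded both STING-KO libraries for these genes, and replicate 1 was the higher in cGAS-KO and the lower in STING-KO. Without cGAS-KO replicate 1 the cortical calls numbered 4 higher and Slc17a7 and Tbr1 lost their calls; without STING-KO replicate 1 they numbered 2, and both genes lost their calls again (adjusted p up to 0.0563 for Slc17a7 and 0.125 for Tbr1). Slc17a7, Tbr1 and Neurod2 were picked after their values were seen, and 12 genes of the list were not called. The lower ones included Foxp2 (-1.74 ± 0.16), which is also on the striatal list. Some genes of the cortical list thus moved in each direction, and the part of dissection in the results was not tested. The choroid plexus gene Ttr stood at 259 and 71.0 against 612 and 206 CPM and was not called, 3 of 25 choroid plexus and 7 of 29 ependymal genes were higher, and the ependymal regulator Foxj1 stood at 46.3 and 54.6 against 7.98 and 15.8 CPM (2.09 ± 0.37). The haemoglobin genes of red blood cells were not called, with Hbb-bs at 58.4 and 111.6 against 49.6 and 22.3 CPM.

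Part of the cell cycle and ribosomal protein genes were called higher, and most genes of respiration were not called. Of 42 cell cycle genes 17 were higher, none lower and 25 not called (median 0.72), with the kinase gene Bub1b at 8.99 and 5.44 against 1.92 and 1.95 CPM (1.90 ± 0.30) and the regulator Foxm1 rising by 1.44 ± 0.20. Of 78 cytosolic ribosomal protein genes 40 were higher and none lower (median 0.55), led by Rpl23a, at 50.8 and 131.9 against 11.9 and 18.0 CPM (2.61 ± 0.37), while abundant members such as Rpsa (0.30 ± 0.18) and Rplp1 (0.38 ± 0.19) were not called. Of 45 nuclear genes of the respiratory chain 17 were lower, 3 higher and 25 not called, for instance Ndufs1, of complex I (-0.84 ± 0.13), and Atp5b, of the ATP synthase (-0.75 ± 0.15). Of 15 mitochondrially encoded genes 4 were higher and 11 not called; the 4 included mt-Cytb, at 11540 and 13360 against 3522 and 8302 CPM (1.07 ± 0.34). Iron storage and haem genes also differed, with the ferritin light chain Ftl1 at 491 and 413 against 68.3 and 171 CPM (1.92 ± 0.33) and Hmox1, haem oxygenase, rising by 2.20 ± 0.27. In the integrated stress response list, 9 of 21 genes were higher and 2 lower; Atf5 rose by 2.50 ± 0.39, and Asns, asparagine synthetase and a usual target of that response, fell by 1.54 ± 0.16. Without cGAS-KO replicate 1 the cell cycle calls numbered 8 higher, without STING-KO replicate 2 they numbered 10, and the ribosomal protein calls numbered 24 without cGAS-KO replicate 2. The mitochondrial calls numbered 2 in fits on only the 4 libraries compared or the 6 of 14 days, 2 without cGAS-KO replicate 1 or STING-KO replicate 1 and 11 without STING-KO replicate 2, and mt-Cytb lost its call without any 1 of the other 3 libraries (adjusted p up to 0.131).

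Other lists had calls on both sides. Among all genes tested 18.2% were called higher and 17.7% lower, and several of these counts lie near or below those shares. Among immediate early genes, which neurons switch on within minutes of activity, 5 of 22 were higher and 6 lower, and among growth factor and repair genes 6 of 22 were higher and 6 lower. Lipid droplet and efflux genes had 8 of 19 higher and 2 lower, cholesterol synthesis genes 2 of 23 higher and 4 lower, and imprinted genes 3 of 19 higher and 6 lower. Of genes marking neighbouring regions, 2 of 15 hippocampal genes were higher and 3 lower, 3 of 20 thalamic and hypothalamic genes higher and 1 lower, and 6 of 20 septal, pallidal and subventricular genes higher and 3 lower.

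The largest differences were ranked among called genes of at least 5 CPM in the higher group and no overlap, with predicted gene models left out. The largest single rise was that of Lgals1, the lectin galectin-1, at 17.7 and 38.0 against 0.9 and 1.95 CPM (4.30 ± 0.47, edgeR adjusted p = 0.000179). Besides Ccl5, Mx1, Igkc and Col5a1 it was followed by Rpl28-ps1, a ribosomal pseudogene whose reads may belong to its parent gene, Cd52, a glycoprotein of leukocytes and activated microglia (29.3 and 52.7 against 1.08 and 6.45 CPM, 3.46 ± 0.51), Fxyd1, a regulator of the sodium pump (3.43 ± 0.52), mt-Nd3 (3.41 ± 0.49) and Ltc4s, leukotriene C4 synthase (3.31 ± 0.49). Among the largest falls, Gpr101, an orphan receptor, stood at 0.668 and 1.94 against 11.2 and 11.7 CPM (-3.14 ± 0.65, adjusted p = 0.00388), Sgcz, a sarcoglycan, at 0.979 and 1.18 against 7.56 and 8.86 CPM (-2.92 ± 0.36), and Coch at 22.4 and 25 against 185 and 123.9 CPM (-2.71 ± 0.26, adjusted p = 0.000114). Klhl1, Impg1, Cftr, Gpr139, Mei4, Pld5 and Slc22a3 completed the 10, from -2.89 to -2.58.

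At 7 days few genes were called between the same labels. Of the same 19822 genes 32 were called (0.161%) and 1758 had an unadjusted p below 0.05; DESeq2 called 264. Between the days the difference became more positive for 2128 genes (10.7%) and more negative for 1702 (8.59%), a test in which the days share no library. Without 14-day cGAS-KO replicate 2 the genes that changed between the days numbered 2147 in place of 3830. It was more positive for 30 of 32 disease-associated microglia genes, 18 of 20 Fc receptor and oxidase genes, 32 of 72 interferon-stimulated genes and 16 of 26 myelin genes, and more negative for 24 of 42 striatal projection neuron genes and 21 of 51 synaptic genes. Spp1, osteopontin, had a 7-day difference of -1.53 and a 14-day difference of 3.20 ± 0.51, with 92.4 and 97.0 against 7.26 and 13.4 CPM at 14 days. Sema3a, an axon guidance cue, went from 2.43 at 7 days to -2.15 ± 0.38 at 14 days. The collagen list already had a median of 0.83 at 7 days, against 1.18 at 14 days, and 4 of its 41 genes became more positive and 3 more negative.

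The levels by group show where the 4 libraries lay. In mean log2(CPM + 0.5), the disease-associated list stood at 7.91 to 8.63 in the 4 knockout libraries of 7 days, at 6.01 and 6.14 in cGAS-KO and 3.27 and 4.48 in STING-KO at 14 days. The striatal projection neuron list stood at 4.42 to 5.13 at 7 days, at 6.76 and 7.21 in cGAS-KO and 8.35 and 8.52 in STING-KO at 14 days. In both lists the 14-day cGAS-KO libraries lay between the 7-day libraries and the 14-day STING-KO libraries. The interferon-stimulated list stood at 3.70 to 4.06 at 7 days and at 3.61 and 4.57 in 14-day cGAS-KO, which overlap, and at 2.00 and 2.77 in 14-day STING-KO. Myelin genes stood at 7.22 to 7.78 at 7 days, at 8.10 and 8.09 in cGAS-KO and at 6.81 and 7.04 in STING-KO at 14 days, so the 2 labels lay on either side of the 7-day range.

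**Figure D4:**
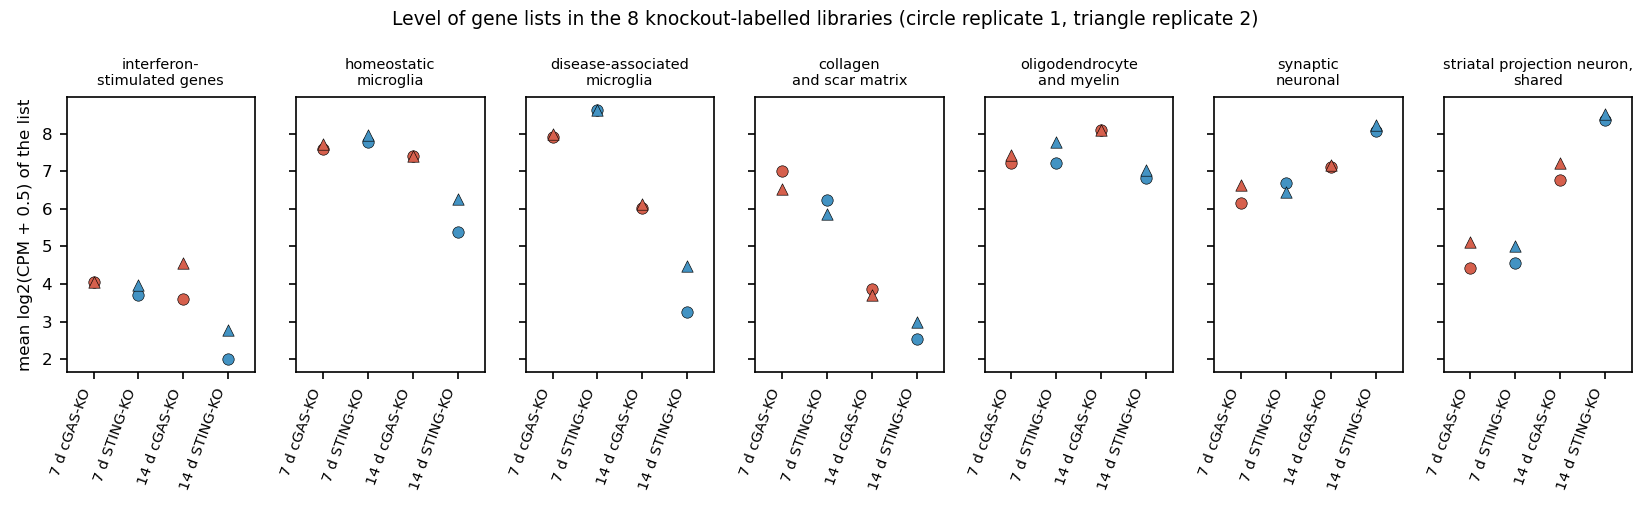
Mean log2(CPM + 0.5) of 7 gene lists in the 8 knockout-labelled libraries, with cGAS-KO in red and STING-KO in blue and 1 point per library. At 14 days the striatal list stands at 8.35 and 8.52 in STING-KO and 6.76 and 7.21 in cGAS-KO, and its 7-day libraries overlap. At 7 days the myelin and synaptic lists overlap too, while the other 4 do not, such as the disease-associated list, at 7.91 and 8 in cGAS-KO and 8.63 in both STING-KO libraries.

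Composition of the transcripts moved with the comparison. Genes higher in the libraries labelled cGAS-KO had a median GC content of 53.7% and a median exonic length of 3465 bases, those lower 45.4% and 5477 bases, and all tested 49.3% and 3692 bases. From the lowest to the highest decile of GC content, the median difference went from -0.43 to 0.67 at 14 days and from 0.06 to -0.01 at 7 days. With GC and length corrected, which was added after the data had been seen, 67.1% of the higher and 75.3% of the lower calls remained, and the calls numbered 2866 higher and 3673 lower. The lists held under that correction: 62 interferon-stimulated genes, 18 homeostatic and 30 disease-associated microglia genes, all 20 Fc receptor and oxidase genes and 19 myelin genes were higher, and 35 striatal and 43 synaptic genes were lower. Ribosomal protein calls fell from 40 to 27 and matrix calls from 21 to 15. Of the genes named here, Irf7, Socs3, Nfkbia, Ifi27, Lgals3bp, Cldn5 and Pde10a lost their calls under it, with adjusted p from 0.0514 (Lgals3bp) to 0.202 (Nfkbia), while Cd3e and Enpp1 gained one and Ppp1r1b was called lower (-1.28, adjusted p = 0.0323). The part of GC and length in single genes was not tested further.

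**Figure D5:**
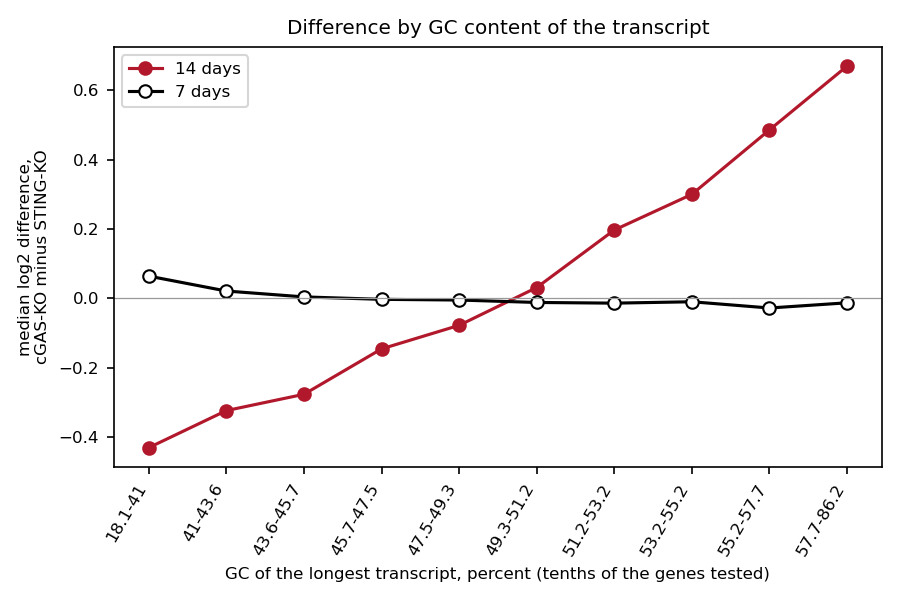
Median log2 difference, cGAS-KO minus STING-KO, of the genes tested, in 10 deciles of GC percent of the longest transcript, at 14 days (red) and 7 days (open). The 14-day median rises from -0.43 to 0.67 along the GC range and the 7-day median stays near 0.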

How the data were processed

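Raw read counts per gene were deposited by the authors for 12 polyA+ RNA-seq libraries of striatum after ischemic stroke. Per the submitters' processing notes, HISAT2, featureCounts and mm10 were used; versions, annotation release, strand setting and filters are not given in the sources used here, so reads of overlapping or antisense genes cannot be told apart. The files hold counts for 54532 Ensembl IDs, of which 54495 took a symbol from GENCODE's mm10 annotation.

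Counts were fitted with edgeR 4.0.16 (R 4.3.3) in 1 model of 6 groups of 2 libraries, with 6 residual degrees of freedom, filterByExpr (minimum count 10, minimum total 15), TMM factors, robust quasi-likelihood tests and Benjamini-Hochberg adjustment at 0.05. Standard errors are the log2 difference over the square root of F. The fit was tested on simulated counts. Gene counts are compared between libraries only, since they are not per length. Alternatives were DESeq2 1.42.0, other scalings, filters and library sets, a replicate block, each library left out, and a GC and length correction added after the data had been seen.

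The 4 libraries, the 47 gene lists and the tests were chosen with earlier results of these data known, and lists overlap in part. Named genes are all pathway genes and the 10 largest rises and falls of called genes whose groups did not overlap. These had at least 5 CPM in the higher group, and predicted gene models were left out. Named too are up to 4 called members with the smallest adjusted p and up to 3 of the highest level per list, and 5 genes per direction of the difference between days. Ccr2, Cd3e, Ctsz, Dgkb, Flt1, Gabra4, Htr1b, Ifit1, Ifit3, Irgm1, Isg15, Neurod2, Pecam1, Ppp1r1b, Scn2a, Slc17a7 and Tbr1 were chosen after their values were seen, as were the 24 families. Some genes that the rule names are not reported here.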

Additional observations from a re-analysis of the deposited data

Results flagged for a closer look

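The cGAS-KO minus STING-KO difference changed between 7 and 14 days in the interaction test of edgeR, adjusted over all genes, for 2128 genes toward more positive and 1702 toward more negative values. Among named genes of the pathway or of the largest rises and falls, and those with the largest change between the days, the 14-day minus 7-day difference on the log2 scale was positive for Cgas (1.42), Tmem173 (1.87), Col5a1 (1.90), Rpl28-ps1 (3.62), Ltc4s (3.72), Mx1 (3.72), Fxyd1 (3.78), Ccl5 (3.91), Cd52 (4.04), Lgals1 (4.56), Ccl4 (4.63), Spp1 (4.72), Ch25h (5.11), Plin4 (5.49) and C1ql2 (7.04). It was negative for Slc22a3 (-2.07), Coch (-3.18), Dazl (-3.43), Crispld1 (-3.76), Slc9a2 (-3.84), Gpr101 (-4.27) and Sema3a (-4.58). Ch25h, which makes 25-hydroxycholesterol in activated microglia, stood at 21.6 and 14.5 against 0.840 and 4.17 CPM at 14 days. C1ql2 stood at 1.33 and 11 against 0.420 and 1.11 CPM at 14 days, where its difference of 3.01 was not called (edgeR adjusted p = 0.101), and its 7-day difference of -4.03 ± 1 was not called either (edgeR adjusted p = 0.163). Slc9a2 was also not called at 14 days (edgeR adjusted p = 0.254). Groups of 2 libraries are too small for a test of single outlying libraries.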

How the results depend on the processing

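The 7112 calls at 14 days (3612 higher, 3500 lower) became 4614 in a fit on the 4 libraries alone (2344 higher, 2270 lower), of which 4511 were calls of the 12-library fit in the same direction; fewer libraries inform the spread there. Leaving out 1 of the 4 libraries gave 4632 to 7291 calls, 2225 to 3739 higher and 2174 to 3552 lower, and the 3830 genes that changed between the days became 2147 to 5007. Left out alone, 14-day cGAS-KO replicate 2 gave the smallest total, 4632, and STING-KO replicate 1 gave 4728. Other scalings, filters, library sets, the older quasi-likelihood form and DESeq2 gave 5392 to 7212 calls at 14 days. Higher genes made up 50.8% of the calls, 55.6% with library totals without TMM and 43.8% with the GC and length correction, which moved the median of all genes from 0.04 to -0.06. The 7-day calls were 4 to 60 under the edgeR alternatives.

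Of 705 list medians under the alternatives, 12 changed sign, in 8 of 47 lists, none of them a list described as leaning one way. With 1 library left out, sign changes fell within the ranges of the monocyte (-0.14 to 0.74), neutrophil (-0.72 to 0.37), hippocampal (-0.93 to 0.44), immediate early (-0.73 to 0.07), choroid plexus (-0.73 to 0.04) and ependymal (-0.05 to 0.71) medians. The fit on 4 libraries reversed the neutrophil median (0.09), and the GC and length correction the pericyte (-0.04), hippocampal (0.25) and sex-linked (0.02) medians. None of the 123 called genes named changed sign, and 31 lost their call under at least 1 alternative, 22 of them under one that left no library out; the cause was not tested. Genes not called that changed sign were Abcc1 (-0.06 to 0.22), Slc19a1 (-0.30 to 0.81), S100a8 (-0.72 to 0.61), Col6a1 (-0.19 to 0.17) and Eif2s3y (-0.13 to 0.15) with a library left out, Banf1 (-0.50), Ptprz1 (0.23), Rplp1 (-0.32) and Slc19a1 (-0.18) with the GC and length correction, Col6a1 (0.03) without TMM and Eif2s3y with DESeq2 size factors (-0.01), the stricter filter or DESeq2 (both 0.00).

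The replicate numbers did not pair the libraries: the replicate differences of the 14-day groups correlated at r = 0.07 across genes, and those of other pairs of groups at -0.092 to 0.196. A fit with the number as a block gave 7188 calls (3688 higher, 3500 lower). With 2 libraries a group, many small differences may have been missed.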

Other observations

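Gene families were read by symbol, chosen after the values had been seen, and are given as descriptions. Ion channel genes called between the labels at 14 days were more often lower than higher in cGAS-KO, and most potassium channel genes were not called. Of 11 voltage-gated sodium channel genes (Scn) 8 were lower and none higher, with a median of -1.29; Scn2a, the axonal channel of projection neurons, stood at 105 and 96.6 against 337 and 340.3 CPM (-1.75 ± 0.20). Of 25 calcium channel genes (Cacn) 13 were lower and 3 higher, and of 81 potassium channel genes (Kcn) 24 were lower, 6 higher and 51 not called, with Kcna4 at 19.4 and 28.5 against 100.9 and 90.0 CPM (edgeR adjusted p = 0.000197). Transmitter receptors followed: 10 of 15 GABA-A receptor subunits (Gabr) were lower and none higher, with Gabra4 at 71.2 and 76.8 against 332 and 269 CPM, and 14 of 26 glutamate receptor genes were lower and 2 higher. Of 13 serotonin receptor genes (Htr) 7 were lower and 1 higher. Htr1b, a receptor on terminals of projection neurons, stood at 17.8 and 27.2 against 133 and 94.6 CPM (-2.34 ± 0.30). Of 64 protocadherins (Pcdh), the adhesion molecules of neurite recognition, 35 were lower and none higher (median -1.01). Of 10 diacylglycerol kinases (Dgk) 6 were lower and 1 higher, with Dgkb at 142 and 168 against 725 and 774 CPM (-2.27 ± 0.21).

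Families of phagocytes and of interferon responses were higher. Of 13 cathepsins (Cts), the lysosomal proteases, 11 were higher and none lower (median 1.5), with Ctsz at 218 and 344 against 40.7 and 74.1 CPM (2.29 ± 0.30). Of the 2'-5' oligoadenylate synthetases (Oas) 5 of 7 were higher, of guanylate-binding proteins (Gbp) 5 of 9 and of Ifi200 genes 6 of 10. Of Toll-like receptors (Tlr) 6 of 11 were higher and of S100a genes 7 of 11, with none lower in these families. In a fit on only the 4 libraries compared, 1 Oas, 4 Gbp, 5 Ifi200, 4 Tlr and 7 S100a genes were higher. Without cGAS-KO replicate 2 the medians fell from 2.35 to 1.44 (Oas), 1.68 to 1.02 (Gbp) and 2.21 to 1.3 (Ifi200). Without STING-KO replicate 1 they were 1.57, 1.13 and 1.53, and they rose without either of the other libraries. All 6 colony-stimulating factor ligands and receptors tested (Csf) were higher, with a median of 1.99. Zinc finger genes (Zfp), a large family with no single role, leaned the other way, with 95 of 365 lower and 41 higher (median -0.24), against 17.7% and 18.2% of all genes tested. With GC and length corrected, 55 were lower and 35 higher (median -0.14), beside 3673 lower and 2866 higher of all 19822 genes tested. In a fit on only the 4 libraries compared, 47 Zfp genes were lower and 19 higher. Of 21 phosphodiesterases (Pde) 8 were lower and 2 higher, of 9 protein kinase C genes (Prkc) 6 and 1, and of 10 calmodulin kinase genes (Camk) 5 and 2. Of 46 complex I genes (Nduf) 14 were lower and 6 higher, and of 22 proton pump genes (Atp6) 9 and 3. Of 49 proteasome genes (Psm) 12 were lower and 6 higher, with a median of -0.14; without STING-KO replicate 1 these were 4 and 8 and the median 0.08, without cGAS-KO replicate 2 they were 4 and 6, and in a fit on only the 4 libraries compared 5 and 5. Of the collagens (Col) 20 of 45 were higher and 2 lower, and of the membrane-spanning Ms4a genes 5 of 8 were higher. The Ms4a median of 2.11 fell to 1.6 without cGAS-KO replicate 2 and to 1.8 without STING-KO replicate 1. It rose without either of the other libraries.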
